A study of Mus musculus with 16 samples.

Results

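Cholesterol and fatty acid synthesis was followed through 32 genes of the SREBP pathway in CD4+CD8+ thymocytes of NOD mice. The 32 were taken by mouse symbol from a fixed list and matched to the Ensembl identifiers of the deposited tables, which hold 46517 gene identifiers. They comprise 18 enzymes of sterol synthesis, 8 genes of fatty acid synthesis, desaturation and elongation, and 6 regulators and a sterol carrier. All 32 passed the filter on low counts and were among the 14933 genes tested.

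The study profiled total RNA of flow-sorted live CD4+CD8+ cells from the thymus, with 1 library for each of 16 mice aged 6 to 7 weeks. There were 5 NOD-AI4-60A mice (3 male, 2 female), which carry an Nfkbid transgene, 5 NOD-AI4-Nfkbid-/- mice (4 male, 1 female), labelled as knockouts, and 6 NOD-AI4 controls (3 male, 3 female). Mice of all 3 groups carry AI4, a T cell receptor cloned from a diabetogenic T cell of the NOD strain, a mouse model of autoimmune diabetes. Nfkbid encodes IkBNS, a nuclear member of the IkB family that modulates NF-kB activity. The promoter of the transgene and the part of Nfkbid altered in the -/- mice are not given in the sources used here, and the transgenic mice are of 1 line, 60A.

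The mevalonate pathway builds isoprenoid units from acetyl-CoA, joins them into squalene, closes the ring to lanosterol and trims lanosterol to cholesterol, while the fatty acid arm carboxylates acetyl-CoA to malonyl-CoA and extends, desaturates and elongates the chain. Both arms are transcribed under SREBP factors, which are held in the endoplasmic reticulum with SCAP by INSIG proteins while sterol is plentiful; SREBP2 is best known for sterol genes and SREBP1c for fatty acid genes. CD4+CD8+ thymocytes are mostly resting cells, and T cells raise both arms when they grow and divide.

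SREBP factors bind sterol elements beside NF-Y and Sp1 sites, so RefSeq promoter windows (GRCm38.p6, 250 bases before to 50 after a gene's start) were searched on both strands for a sterol element core (TCACNCCAC), the NF-Y box (CCAAT), the Sp1 GC box (GGGCGG) and the E-box (CACGTG). Windows were matched by symbol for 25 of the 32 genes. The 4 windows below are of the gene of each group with the smallest p in the transgenic comparison among those with a window (Cyp51, Acaca and Srebf2), and of Hmgcs1, the gene of the 25 whose window held the sterol element core. Capitals mark every match to the 4 motifs, and each sequence reads 5′ to 3′ on the gene's strand.
Cyp51 (chr5:4104648-4104947, minus strand): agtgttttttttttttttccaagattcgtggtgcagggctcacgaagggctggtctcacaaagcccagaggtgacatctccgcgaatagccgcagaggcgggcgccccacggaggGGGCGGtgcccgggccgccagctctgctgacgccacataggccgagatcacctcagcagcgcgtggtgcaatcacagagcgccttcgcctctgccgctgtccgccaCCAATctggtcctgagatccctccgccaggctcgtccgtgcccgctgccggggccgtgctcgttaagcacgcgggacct
Acaca (chr11:84195188-84195487, plus strand): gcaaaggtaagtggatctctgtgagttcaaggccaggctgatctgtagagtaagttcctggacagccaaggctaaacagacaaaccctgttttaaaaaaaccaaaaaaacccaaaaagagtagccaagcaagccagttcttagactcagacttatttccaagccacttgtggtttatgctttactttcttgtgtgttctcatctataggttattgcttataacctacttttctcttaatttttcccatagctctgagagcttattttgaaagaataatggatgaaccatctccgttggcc
Srebf2 (chr15:82147019-82147318, plus strand): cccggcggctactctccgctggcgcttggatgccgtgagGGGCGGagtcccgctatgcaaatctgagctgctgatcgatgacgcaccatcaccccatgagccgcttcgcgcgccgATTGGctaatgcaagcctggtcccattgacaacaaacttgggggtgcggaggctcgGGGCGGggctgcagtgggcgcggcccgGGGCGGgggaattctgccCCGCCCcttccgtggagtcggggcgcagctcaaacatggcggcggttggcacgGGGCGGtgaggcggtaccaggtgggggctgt
Hmgcs1 (chr13:119690101-119690400, plus strand): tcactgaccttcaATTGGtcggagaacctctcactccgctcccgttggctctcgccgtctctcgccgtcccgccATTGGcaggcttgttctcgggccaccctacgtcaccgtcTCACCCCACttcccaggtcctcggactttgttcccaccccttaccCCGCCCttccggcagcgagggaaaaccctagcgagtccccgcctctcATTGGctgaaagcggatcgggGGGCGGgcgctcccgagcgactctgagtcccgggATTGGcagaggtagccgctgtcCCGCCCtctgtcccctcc

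The sterol element core was found in the window of 1 of 25 genes, that of Hmgcs1, as TCACCCCAC starting 137 bases before the gene's start, against 1.40% of the tested genes that have a window. The NF-Y box was in 20 of 25 windowed genes (80%), against 43.1% of 9860 tested genes with a window. Its matches were uneven between the arms, with 14 of 15 sterol enzymes, 2 of 5 fatty acid genes and 4 of 5 regulators. The GC box was in 21 of 25 (84%), against 66.8% of those tested genes, and again in 14 of 15 sterol enzymes and 2 of 5 fatty acid genes. The E-box was in 5 of 25 (20%), against 11.7%. The start site of the Acaca window lies 65766 bases inside the annotated gene, so that window does not cover the gene's outer start. It is the 1 gene of the 25 with no window start within 1000 bases of that outer start, and without it the NF-Y box and the GC box were each in 2 of 4 fatty acid genes. Some genes have further windows deeper inside, which the counts include. The NF-Y boxes of Dhcr7 lay only in a window 7069 bases inside the annotated gene. The GC boxes of Insig2 and Srebf1 lay only in windows more than 1000 bases inside. These matches describe the letters of the windows and were not tested.

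Library totals lay between 17955743 and 35637813 estimated counts. Nfkbid had 309.6, 239.0, 114.7, 194.5 and 182.8 CPM (counts per 1000000 on scaled library sizes) in transgenic libraries, 34.3, 28.8, 28.7, 28.2 and 37.8 CPM in knockout-labelled libraries, and 28.9 to 36.9 CPM in controls (mean 32.7 ± 2.87). The transgenic libraries thus lay above all others, and the knockout-labelled libraries did not lie below the controls (sex-adjusted log2 fold change 0.07, SE 0.15, adjusted p = 0.78). They are therefore called knockout-labelled here, and every direction drawn from them rests on the label. Control mice carry one series of identifiers and the mice of both other groups another, so that genotype and identifier series cannot be told apart in either comparison with controls. The sorted cells expressed their defining markers in every library (Cd4 666.2 to 1125 CPM, Cd8a 1598 to 2342 CPM, Rag1 441.1 to 1157 CPM). Of 11 such markers, 1 was higher and 8 lower in transgenic than in control libraries, and 1 higher and 3 lower in knockout-labelled libraries. Foxn1 of thymic epithelium was at 0 in 13 of 16 libraries, and Plin1 and Adipoq of adipocytes at 0 in 15 and 9. The summed level of 8 B cell markers was 58.3 to 111.2 CPM in transgenic, 3.44 to 5.62 CPM in knockout-labelled and 4.77 to 9.53 CPM in control libraries, with 6 of 7 tested ones higher and 0 lower in transgenic libraries over control. That of 9 macrophage and dendritic cell markers was 66.8 to 96.4 CPM in transgenic libraries, 77.9, 79.8, 89.3, 22.6 and 17.6 CPM in knockout-labelled libraries 1 to 5, and 17.5 to 37.6 CPM in controls, with 7 of 9 higher in transgenic and 3 of 9 in knockout-labelled libraries. Malat1, a nuclear RNA, had 2251 to 3300 CPM in transgenic, 2693 to 3019 CPM in knockout-labelled and 3206 to 4935 CPM in control libraries. Proliferation genes also moved with the groups, at 5433 to 7267 CPM summed over 25 genes in transgenic, 4969 to 7508 CPM in knockout-labelled and 3487 to 5082 CPM in control libraries. Of 21 tested immediate-early and handling-stress genes, 1 was higher and 9 lower in transgenic than in control libraries, and 0 were higher and 11 lower in knockout-labelled libraries. Their summed level was 1288 to 1472 CPM in transgenic, 1253 to 1551 CPM in knockout-labelled and 1580 to 2095 CPM in control libraries, so that both groups lay below all controls. Fosb, an immediate-early gene of the AP-1 family, averaged 0.397 ± 0.154 CPM in transgenic, 0.899 ± 0.275 CPM in knockout-labelled and 3.86 ± 1.86 CPM in control libraries (SD, n = 5, 5 and 6). The part of these genes in the results was not tested. Of all tested genes, 23.0% were higher and 15.6% lower in transgenic than in control libraries. In knockout-labelled libraries 16.4% were higher and 1493 of 14933 lower. In these sorted populations more cells of a type and more RNA per cell cannot be told apart.

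In transgenic thymocytes the route from acetyl-CoA to cholesterol was higher than in controls at all of its enzymes here except Tm7sf2 and Dhcr7, and the fatty acid arm was higher at acetyl-CoA carboxylase, fatty acid synthase, the elongase and the desaturases of polyunsaturated chains. Of the 32 genes, 26 were higher and 0 lower (edgeR, adjusted p under 0.05), against 23.0% of all tested genes called higher (3438 genes) and 15.6% called lower (2327 genes). With an added correction for GC content and transcript length, chosen after seeing the data, the split over all tested genes turned to 2477 higher and 3492 lower, and that of the 32 was 26 higher and 2 lower (Dhcr7 and Insig2). By group the calls were 16 of 18 sterol enzymes, 6 of 8 fatty acid genes and 4 of 6 regulators. Median log2 fold changes were 0.45 for the sterol enzymes, 0.45 for the fatty acid genes (0.40 without Scd1, which was near 0 in most libraries) and 0.32 for the regulators, against 0.03 for all tested genes. In 23 of the 32 genes every transgenic library lay above every control, which held for 13.7% of all tested genes. That pattern took in 15 sterol enzymes, 5 fatty acid genes and 3 regulators.

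In knockout-labelled thymocytes, set against the same controls, genes of both arms were also higher, among them Sqle, Cyp51 and Idi1 of the sterol route and Fads2, Acaca and Fasn of the fatty acid route. Of the 32 genes, 20 were higher and 0 lower, against 16.4% of all tested genes called higher (2449 genes) and 26.4% called in either direction, 1493 of them lower. With the GC and length correction the split over all tested genes was 1978 higher and 2114 lower, and that of the 32 was 16 higher and 1 lower (Insig2). The calls were 12 of 18 sterol enzymes, 5 of 8 fatty acid genes and 3 of 6 regulators. The medians were 0.31 for the sterol enzymes, 0.49 for the fatty acid genes (0.41 without Scd1) and 0.21 for the regulators, against 0.02 for all tested genes. Every knockout-labelled library lay above every control in 12 genes (7 sterol, 4 fatty acid, 1 regulator), against 8.77% of all tested genes. Without knockout-labelled libraries 1 to 3 and control 1, which have the most macrophage and dendritic cell marker RNA of their groups, MHC class II genes among it, 7 genes were called (2 of 18 sterol enzymes and 5 of 8 fatty acid genes), against 9.26% of all tested genes in either direction. The sterol median was then 0.27, with 2 knockout-labelled libraries left in the fit. Idi1 (0.43, adjusted p = 0.257) and Cyp51 (0.60, adjusted p = 0.073) were among the calls lost there (edgeR). Idi1 was also not called among males alone (0.55, adjusted p = 0.104).

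**Figure D1:**
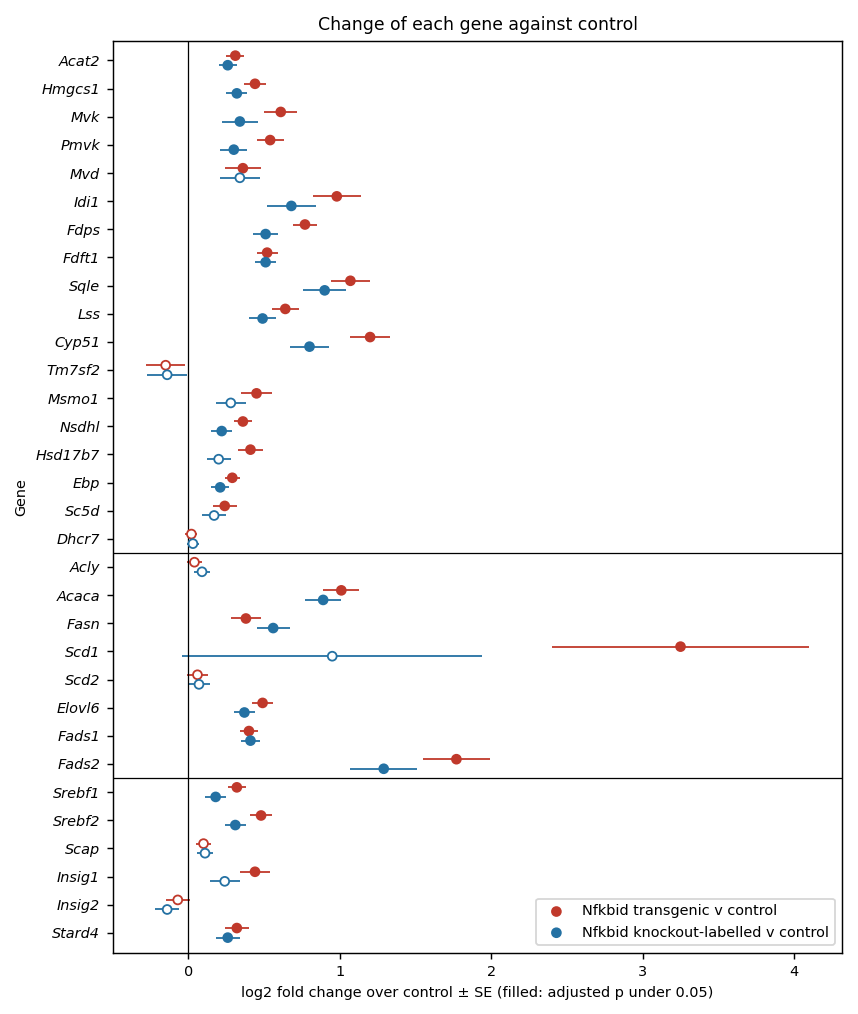
Log2 fold change over control (horizontal axis, ± SE) of each of the 32 genes (vertical axis) in transgenic libraries (red) and knockout-labelled libraries (blue), from the edgeR fit of 16 libraries with filled points for adjusted p under 0.05. Most points lie right of 0, the largest change with a short error bar is Fads2 at 1.77 in transgenic libraries, and Tm7sf2, Dhcr7, Acly, Scd2, Scap and Insig2 are open in both comparisons.

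The mevalonate steps, from acetyl-CoA to farnesyl diphosphate, are carried by 7 of the genes. Idi1, the isomerase that makes dimethylallyl diphosphate, had 35.2, 46.7, 41.3, 42.2 and 35.8 CPM in transgenic libraries, 30.9, 42.5, 37.6, 34.9 and 22.0 CPM in knockout-labelled libraries, and a median of 18.5 CPM (16.1 to 28.2) in controls. The transgenic libraries did not overlap the controls, and of the knockout-labelled ones library 5 fell inside the control range. Its log2 fold change was 0.98 (SE 0.16, adjusted p = 2.85e-04) in transgenic and 0.68 (SE 0.16, adjusted p = 0.00682) in knockout-labelled libraries. Fdps, which makes farnesyl diphosphate, had 49.1, 48.0, 50.2, 51.2 and 44.0 CPM in transgenic libraries, 40.9, 45.6, 43.7, 42.8 and 31.9 CPM in knockout-labelled libraries, and a median of 27.5 CPM (25.8 to 32.4) in controls. Again knockout-labelled library 5 alone reached into the control range. The log2 fold change of Fdps was 0.77 (SE 0.08, adjusted p = 1.10e-05) in transgenic and 0.51 (SE 0.08, adjusted p = 7.21e-04) in knockout-labelled libraries.

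The earlier mevalonate steps changed less. Hmgcs1, the HMG-CoA synthase whose window holds the sterol element core, averaged 64.1 ± 5.50 CPM in transgenic, 60.0 ± 4.25 CPM in knockout-labelled and 47.1 ± 3.92 CPM in control libraries (SD, n = 5, 5 and 6), and was called higher in both comparisons with no overlap with controls. The margin was narrow, with knockout-labelled library 5 and control 3 both 0.18 above the control mean on the log2 scale. Its knockout-labelled call was lost among males alone (0.28, adjusted p = 0.0527) and without the libraries high in class II transcripts (0.27, adjusted p = 0.144). Acat2, the cytosolic thiolase that starts the route, was higher by 0.31 in transgenic and 0.26 in knockout-labelled libraries on the log2 scale. Mvk and Pmvk, the kinases that phosphorylate mevalonate, were higher by 0.61 and 0.54 in transgenic and by 0.34 and 0.30 in knockout-labelled libraries. The knockout-labelled calls of both kinases were lost when single libraries were left out, in 11 of 16 such fits for Mvk and 6 of 16 for Pmvk. Mvd, the decarboxylase, was called in transgenic libraries (0.36, adjusted p = 0.0293) and had 0.34 (adjusted p = 0.0595) in knockout-labelled libraries, where its groups overlapped. Its transgenic call was lost in 8 of 16 fits without 1 library. In all, 7 of 7 mevalonate genes were called in transgenic libraries, with a median of 0.54, and 6 of 7 in knockout-labelled libraries, with a median of 0.34.

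From farnesyl diphosphate to lanosterol, all 3 enzymes were higher in both comparisons, with medians of 0.64 in transgenic and 0.51 in knockout-labelled libraries. Sqle, the squalene epoxidase and a control point of the pathway, had 22.6, 24.9, 23.4, 29.0 and 21.0 CPM in transgenic libraries, 18.7, 22.6, 23.6, 27.7 and 16.2 CPM in knockout-labelled libraries, and a median of 10.9 CPM (9.77 to 14.8) in controls. Neither group overlapped the controls, and Sqle was 2.10-fold higher in transgenic (log2 1.07, SE 0.13, adjusted p = 3.74e-05) and 1.86-fold higher in knockout-labelled libraries (log2 0.90, SE 0.14, adjusted p = 5.50e-04). Fdft1, the squalene synthase, was higher by nearly the same amount in both, 0.52 (SE 0.07) in transgenic and 0.51 (SE 0.07) in knockout-labelled libraries. Lss, which closes the ring to lanosterol, was higher by 0.64 in transgenic and 0.49 in knockout-labelled libraries.

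From lanosterol to cholesterol the changes were uneven, with 6 of 8 genes higher in transgenic and 3 of 8 in knockout-labelled libraries (medians 0.33 in transgenic and 0.20 in knockout-labelled libraries). Cyp51, the lanosterol demethylase whose window is printed above, had 30.2, 31.8, 34.0, 37.6 and 25.9 CPM in transgenic libraries, 22.8, 29.2, 27.7, 26.5 and 17.8 CPM in knockout-labelled libraries, and a median of 13.4 CPM (11.5 to 17.8) in controls. All transgenic libraries lay above the controls, and knockout-labelled library 5 met the highest control. At 2.30-fold (log2 1.20, SE 0.13, adjusted p = 1.28e-05) in transgenic and 1.74-fold (log2 0.80, SE 0.13, adjusted p = 7.41e-04) in knockout-labelled libraries, Cyp51 had the largest transgenic change of the 18 sterol enzymes. The demethylation steps that follow moved less. Nsdhl was called at 0.36 in transgenic and 0.22 in knockout-labelled libraries, where the call was lost in 4 of 16 fits without 1 library, among males alone (adjusted p = 0.0631) and with no filter on low counts (adjusted p = 0.0594). Msmo1 was called in transgenic libraries (0.45, adjusted p = 0.00239), though not among males alone (0.31, adjusted p = 0.13). In knockout-labelled libraries Msmo1 had 0.28 (adjusted p = 0.0609), and it passed the threshold with no sex term (adjusted p = 0.0373), with only the groups compared (0.047), with the GC and length correction (0.0442) and without transgenic library 3 (0.0457). Hsd17b7 was called in transgenic libraries (0.41, adjusted p = 7.18e-04) and had 0.20 (adjusted p = 0.082) in knockout-labelled libraries.

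The enzymes called in neither comparison were Dhcr7 and Tm7sf2. Dhcr7, which reduces 7-dehydrocholesterol to cholesterol, had 68.5, 64.1, 71.0, 71.2 and 72.2 CPM in transgenic libraries, 67.9, 72.0, 73.6, 66.1 and 74.5 CPM in knockout-labelled libraries, and a median of 68.0 CPM (62.6 to 72.0) in controls. The 3 groups overlapped throughout, with log2 fold changes of 0.02 in transgenic and 0.03 in knockout-labelled libraries (SE 0.04 each). With the GC and length correction the transgenic value of Dhcr7 was -0.14 with an adjusted p of 0.021. Tm7sf2, a sterol C14 reductase, averaged 9.44 ± 0.787 CPM in transgenic, 9.36 ± 0.543 CPM in knockout-labelled and 10.7 ± 2.46 CPM in control libraries, where it ran between 7.50 and 14.5 CPM. Ebp, the sterol isomerase, was called at 0.29 in transgenic and 0.21 in knockout-labelled libraries. Among males alone both calls were lost, at 0.18 (adjusted p = 0.0616) in transgenic and 0.16 (adjusted p = 0.0775) in knockout-labelled libraries. The knockout-labelled call was also lost with the GC and length correction (adjusted p = 0.129) and without the libraries high in class II (0.0788) or interferon-response transcripts (0.0507). Sc5d, the C5 desaturase, was called in transgenic libraries at 0.24, a call lost in 5 of 16 fits without 1 library, and had 0.17 (adjusted p = 0.125) in knockout-labelled libraries.

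**Figure D2:**
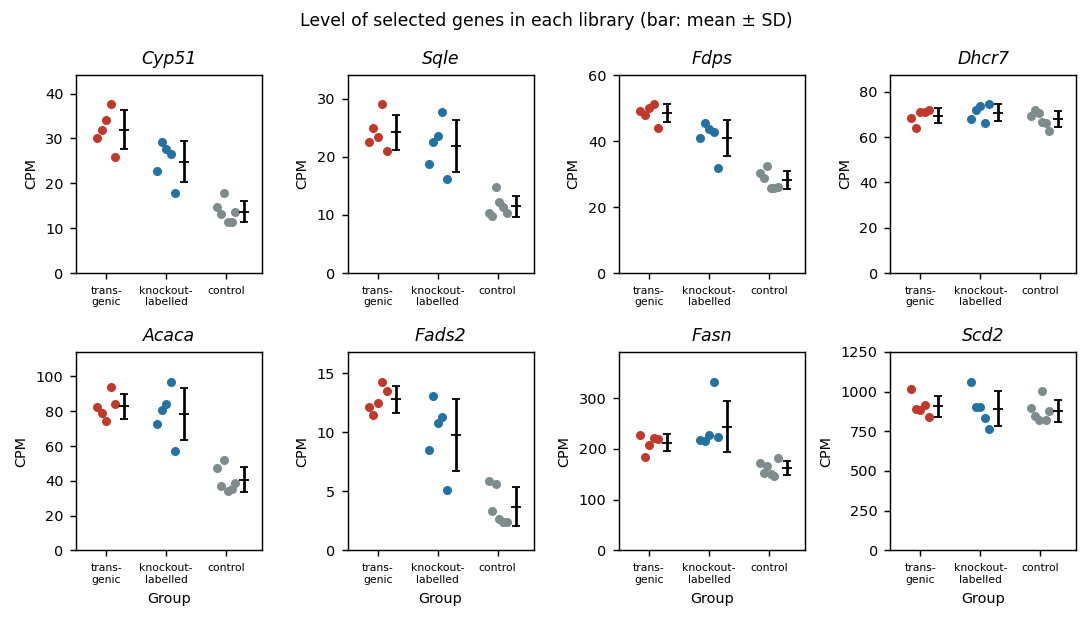
CPM on TMM-scaled library sizes (vertical axes, starting at 0) of 8 genes in each transgenic, knockout-labelled and control library (points), with bars for the group mean ± SD (n = 5, 5 and 6). Cyp51, Sqle, Fdps, Acaca and Fads2 stand higher in transgenic and knockout-labelled libraries than in most controls, Fasn has 1 knockout-labelled library at 332.7, and Dhcr7 and Scd2 overlap across the groups.

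The fatty acid arm was uneven. In transgenic libraries Acly and Scd2 were not called, and the called genes were higher by differing amounts. Acaca, the acetyl-CoA carboxylase that makes malonyl-CoA, had 82.4, 78.9, 74.3, 93.9 and 84.4 CPM in transgenic libraries, 72.9, 80.6, 84.1, 97.1 and 57.3 CPM in knockout-labelled libraries, and a median of 37.8 CPM (34.3 to 52.0) in controls. No library of either group overlapped the controls, and Acaca was 2.02-fold higher in transgenic (log2 1.01, SE 0.12, adjusted p = 3.27e-05) and 1.86-fold higher in knockout-labelled libraries (log2 0.89, SE 0.12, adjusted p = 4.16e-04). Acly, which supplies cytosolic acetyl-CoA to both arms, averaged 317.1 ± 18 CPM in transgenic, 328.7 ± 15.7 CPM in knockout-labelled and 307.3 ± 14.0 CPM in control libraries. Its log2 fold changes of 0.04 in transgenic and 0.09 in knockout-labelled libraries (SE 0.05 each) were not called.

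Fasn, the fatty acid synthase, had 226.7, 184.4, 207.0, 221.9 and 219.1 CPM in transgenic libraries, 217.8, 215.8, 226.3, 332.7 and 223.2 CPM in knockout-labelled libraries, and a median of 159.7 CPM (146.6 to 181.8) in controls. Both groups lay above the controls, and knockout-labelled library 4 stood far above the rest of its group. The log2 fold changes were 0.38 (SE 0.10, adjusted p = 0.00843) in transgenic and 0.56 (SE 0.11, adjusted p = 0.00172) in knockout-labelled libraries. In transgenic libraries the call was lost among males alone and without the libraries high in interferon-response transcripts (control 2 and transgenic 3 and 5).

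Among the genes that desaturate and elongate, Fads2, the delta-6 desaturase of polyunsaturated fatty acids, had 12.1, 11.5, 12.5, 14.3 and 13.5 CPM in transgenic libraries, 8.49, 13.1, 10.8, 11.3 and 5.13 CPM in knockout-labelled libraries, and a median of 2.99 CPM (2.37 to 5.89) in controls. The transgenic libraries were all above the controls, and knockout-labelled library 5 fell within the range set by controls 1 and 3, the highest of the 6. Fads2 was 3.42-fold higher in transgenic (log2 1.77, SE 0.22, adjusted p = 4.77e-05) and 2.44-fold higher in knockout-labelled libraries (log2 1.29, SE 0.22, adjusted p = 0.00123). Fads1, the delta-5 desaturase encoded beside it, was higher by 0.40 in transgenic and 0.41 in knockout-labelled libraries (SE 0.06 each). Elovl6, which elongates palmitate, was higher by 0.49 in transgenic and 0.37 in knockout-labelled libraries (SE 0.07 each). Neither gene had an overlap with controls in either comparison.

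The stearoyl-CoA desaturases lay at opposite ends of the level range. Scd2 had the highest TPM of the 32 genes and was not called, at 907.7 ± 66.2 CPM in transgenic, 893.0 ± 111.0 CPM in knockout-labelled and 877.4 ± 68.3 CPM in control libraries. Scd1 was near the floor of the assay, at 7.37, 1.25, 1.17, 1.17 and 0.714 CPM in transgenic libraries, 0.679, 0.553, 0.361, 0.170 and 0.126 CPM in knockout-labelled libraries, and 0.880 CPM in control 1 against 0 to 0.110 CPM in the other 5 controls. The transgenic libraries lay above the knockout-labelled ones and above all controls but control 1, and the fit called Scd1 higher than in controls (log2 3.25, SE 0.85, adjusted p = 0.00828), a call lost among males alone (1.63, adjusted p = 0.21). In knockout-labelled libraries Scd1 had 0.95 (SE 0.99, adjusted p = 0.51), and 3.47 (adjusted p = 0.00943) without control 1. Its estimated counts were fractional in 14 of 16 libraries and those of Scd2 in 16 of 16, so the split of reads between these close paralogs is uncertain.

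Of the regulators, both SREBP genes were higher. Srebf2, whose window is printed above, had 307.8, 254.1, 273.2, 311.6 and 288.1 CPM in transgenic libraries, 251.6, 271.4, 264.0, 260.4 and 225.8 CPM in knockout-labelled libraries, and a median of 199.9 CPM (186.4 to 225.5) in controls. Neither group overlapped the controls, by a margin of 225.8 against 225.5 CPM in the knockout-labelled case. The log2 fold changes were 0.48 (SE 0.07, adjusted p = 6.71e-05) in transgenic and 0.31 (SE 0.07, adjusted p = 0.00384) in knockout-labelled libraries. Srebf1 was higher by 0.32 (SE 0.06, adjusted p = 0.00105) in transgenic and by 0.18 (SE 0.07, adjusted p = 0.0487) in knockout-labelled libraries, where the call was lost in 15 of 16 fits without 1 library. Transcript level says nothing of how much SREBP protein was cleaved.

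Insig1, the retention protein whose gene is itself an SREBP target, had 36.7, 42.5, 46.9, 47.8 and 44.0 CPM in transgenic libraries, 33.4, 48.7, 43.3, 38.5 and 30.9 CPM in knockout-labelled libraries, and a median of 31.8 CPM (26.1 to 35.4) in controls. It was called in transgenic libraries (0.44, SE 0.10, adjusted p = 0.00238), and in knockout-labelled libraries, which overlapped the controls, it had 0.24 (SE 0.10, adjusted p = 0.0927). Insig2, its paralog, had -0.07 (SE 0.08) in transgenic and -0.14 (SE 0.08) in knockout-labelled libraries, neither called. It was called lower in both with the GC and length correction, at -0.21 (adjusted p = 0.0254) in transgenic and -0.21 (adjusted p = 0.0375) in knockout-labelled libraries, and among males alone in the knockout-labelled comparison (-0.25, adjusted p = 0.0477). Scap, the escort of the SREBP factors, had 0.10 in transgenic and 0.11 in knockout-labelled libraries (SE 0.05 each), also not called. Stard4, a cytosolic sterol carrier, was higher by 0.32 in transgenic and 0.26 in knockout-labelled libraries, and its knockout-labelled call was lost in 11 of 16 fits without 1 library.

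**Figure D3:**
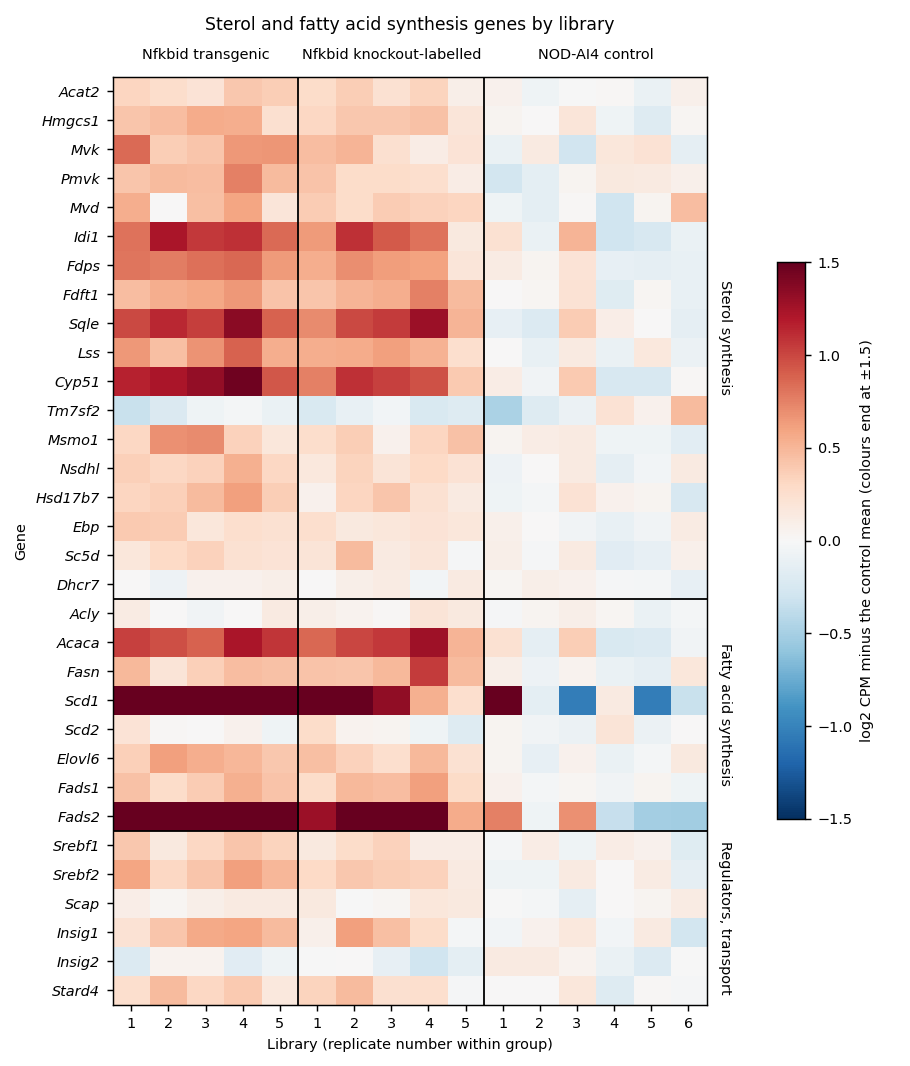
Difference of log2 CPM from the control mean (colour, ending at ±1.5) for the 32 genes (rows, in sterol, fatty acid and regulator blocks) in each library (columns: transgenic, knockout-labelled and control mice by replicate number). Red runs through most rows of both the transgenic and the knockout-labelled columns, is palest in knockout-labelled library 5, and is faint or absent in Tm7sf2, Dhcr7, Acly and Scap.

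Counted library by library, the median over the 18 sterol enzymes lay 0.42, 0.42, 0.46, 0.60 and 0.37 above the control mean on the log2 scale in transgenic libraries 1 to 5, 0.34, 0.39, 0.33, 0.32 and 0.18 in knockout-labelled libraries, and between -0.08 and 0.13 in controls. Neither group overlapped the controls, and knockout-labelled library 2 was the one above the lowest transgenic library. For the 8 fatty acid genes the medians were 0.47, 0.45, 0.46, 0.51 and 0.44 in transgenic libraries, 0.44, 0.46, 0.48, 0.57 and 0.27 in knockout-labelled libraries, and between -0.12 and 0.08 in controls. Here the knockout-labelled libraries other than 5 stood at the level of the transgenic ones. The fatty acid median exceeded the sterol median in 5 of 5 knockout-labelled libraries, by 0.07 to 0.25, while in transgenic libraries the difference ran from -0.09 to 0.07 and in controls from -0.08 to 0.06. These arm differences were given no test, and with the genes chosen knowing earlier results they are a description of these libraries.

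**Figure D4:**
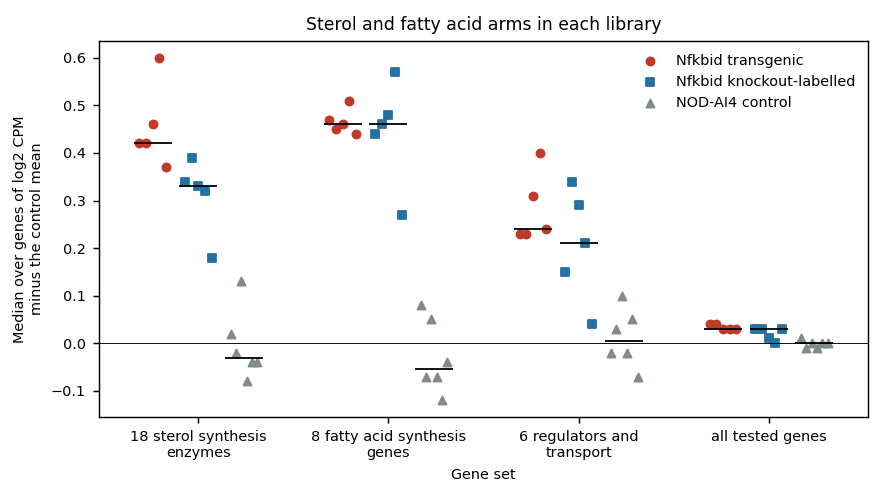
Median over the genes of each set of log2 CPM minus the control mean (vertical axis) in each transgenic (red circle), knockout-labelled (blue square) and control library (grey triangle), with lines for the group medians. Sterol medians are 0.37 to 0.60 in transgenic, 0.18 to 0.39 in knockout-labelled and -0.08 to 0.13 in control libraries, and all tested genes stay between -0.01 and 0.04.

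Single libraries carried the genes up or down together. Transgenic library 4 was the highest of its group in 18 of the 32 genes and the lowest in 0, against 17.4% and 17.3% of all tested genes. Knockout-labelled library 5 was the lowest of its group in 18 of the 32, against 25.2% of all tested genes, and control 3 the highest of the controls in 15 of the 32, against 15.8%. The summed level of the 25 proliferation genes was also highest of its group in transgenic library 4 (7267 CPM), lowest in knockout-labelled library 5 (4969 CPM) and highest of the controls in control 3 (5082 CPM). In other libraries the sums and the sterol medians stood in another order. Knockout-labelled library 4 had the highest sum of all (7508 CPM) with a sterol median of 0.32, below libraries 1 to 3 of its group. Its fatty acid median, 0.57, was the highest of all libraries. Across knockout-labelled libraries 1 to 5 the fatty acid medians stood in the same order as the sums. In transgenic and control libraries they did not. Transgenic library 3 had the lowest sum of its group (5433 CPM) with a sterol median of 0.46, the second highest. The part of the proliferation genes in the result was not tested. Knockout-labelled library 5 and control 3, close in these sums, had sterol medians of 0.18 and 0.13 and fatty acid medians of 0.27 and 0.05. Of macrophage and dendritic cell markers, knockout-labelled libraries 1 to 3 had 77.9 to 89.3 CPM with sterol medians of 0.33 to 0.39, library 4 had 22.6 CPM with 0.32, and library 5 had 17.6 CPM with 0.18. The part of these markers in the result was not tested.

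The median spread between mice differed by arm in the knockout-labelled group, with Scd1 counted in the fatty acid arm. The median coefficient of variation of the fatty acid genes was 7.65% in transgenic, 15.6% in knockout-labelled and 8.23% in control libraries, while over all tested genes it was 10.2% in transgenic, 11.1% in knockout-labelled and 11.4% in control libraries. For the sterol enzymes it was 8.46% in transgenic, 9.36% in knockout-labelled and 9.91% in control libraries. In knockout-labelled libraries Scd1, near the floor, had 63.2%. The other fatty acid genes besides Fads2 had 4.77% (Acly), 8.16% (Elovl6), 10.2% (Fads1), 12.4% (Scd2), 18.7% (Acaca) and 20.6% (Fasn) there. Fads2 was variable among controls (43.7%), with both high values in males, and among knockout-labelled libraries (31.5%), against 8.72% in transgenic libraries.

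Between the transgenic and the knockout-labelled libraries, whose mice share 1 identifier series, 0 of the 32 genes were called, against 1.07% of all tested genes higher and 0.0938% lower (edgeR). DESeq2 also called 0. At an unadjusted p under 0.05 there were 8 by edgeR (Mvk, Pmvk, Fdps, Cyp51, Hsd17b7, Fads2, Scd1 and Srebf2) and 7 by DESeq2, and all of them had higher transgenic values. The share of all tested genes at that unadjusted level is not given here, so these counts are not read as an excess. Fdps had the smallest adjusted p, 0.197, with 48.5 ± 2.79 CPM in transgenic and 41.0 ± 5.35 CPM in knockout-labelled libraries (SD, n = 5 each). Apart from Scd1, the log2 differences ran from -0.18 (Fasn) to 0.49 (Fads2), with SE of 0.04 to 0.22, and these misses of the threshold do not show that the groups were alike. The median difference was 0.15 for the sterol enzymes, of which 16 of 18 were positive, and 0.06 for the fatty acid genes, of which 4 of 8 were positive, against 0.00 for all tested genes. Scd1 was the gene of the 32 whose groups did not overlap, against 2.33% of all tested genes with the transgenic libraries above.

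Male and female libraries were also compared with group taken into account. None of the 32 genes was called (0 by edgeR and 0 by DESeq2), against 0.0603% of all tested genes higher and 0.0804% lower in males. The log2 differences ran from -0.13 to 0.20 in the sterol enzymes and from -0.95 to 0.49 in the fatty acid genes. These misses of the threshold do not show that the sexes were alike. At an unadjusted p under 0.05 both tools listed the same 4 genes, Dhcr7, Fads2, Insig1 and Scd2. No share of all tested genes at that unadjusted level is given beside them. Dhcr7 averaged 71.3 ± 2.32 CPM in 10 males and 66.0 ± 2.26 CPM in 6 females (log2 0.10, SE 0.04, adjusted p = 0.329 by edgeR). The male control libraries were also the deeper ones, at 25052921 to 26586220 estimated counts against 17955743 to 18888169 in female controls. In a fit of the difference between the sexes in the transgenic effect, 0 of 32 genes were called, against 4 of 14385 genes called (edgeR). Of the 32, 5 had an unadjusted p under 0.05, for which no share of all genes is given.

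On a per-length scale, the authors' TPM (transcripts per 1000000), the fatty acid genes held more transcript than the sterol enzymes. Summed TPM of the 8 fatty acid genes was 509.4 ± 28.5 in transgenic, 529.8 ± 18.2 in knockout-labelled and 499.9 ± 29.4 in control libraries (SD, n = 5, 5 and 6), of which the 7 genes other than Scd2 made up 252.1 ± 21.8 TPM in transgenic, 269.3 ± 20.8 TPM in knockout-labelled and 233.2 ± 15.6 TPM in control libraries. For the 18 sterol enzymes the sums were 455.8 ± 27.9 TPM in transgenic, 433.1 ± 26.5 TPM in knockout-labelled and 360.7 ± 15.4 TPM in control libraries, with the lowest transgenic library (425.9) and the lowest knockout-labelled library (403.2) above the highest control (386.6). So the summed sterol level stood apart from controls in both groups, whereas the summed fatty acid level overlapped, at 471.4 to 534.8 TPM in transgenic, 499.2 to 547.3 TPM in knockout-labelled and 470.1 to 553.7 TPM in control libraries. The fatty acid sum is weighted to Scd2 and Acly (266.7 and 161.1 TPM in controls), which were called in neither comparison. Acly averaged 143.0 ± 16.5 TPM in transgenic and 160.5 ± 12.8 TPM in knockout-labelled libraries, although its mean CPM was not below that of controls. The contrast of the sums therefore differs from that of the arm medians, which count each gene alike.

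In controls the order of mean TPM began with Scd2 (266.7 ± 23.9), Acly (161.1 ± 15.6) and Srebf1 (114.6 ± 11.7), and ended with Sqle (6.72 ± 1.07), Fads2 (4.28 ± 1.84) and Scd1 (0.0636 ± 0.115). Srebf2 (68.2 ± 6.31), Dhcr7 (64.4 ± 4.78) and Ebp (56.6 ± 3.43) followed, all below the control range of Srebf1 (93.6 to 126.1). The control ranges of these next genes overlapped each other. Among sterol enzymes the more abundant steps were Dhcr7, Ebp and Fdps (43.1 ± 4.31 TPM). The 16 genes with the lowest control TPM (0.0636 to 16.5) included 16 called higher in transgenic and 12 in knockout-labelled libraries, with medians of 0.57 in transgenic and 0.45 in knockout-labelled libraries. The 16 with the highest control TPM (16.8 to 266.7) included 10 called higher in transgenic and 8 in knockout-labelled libraries, with medians of 0.30 in transgenic and 0.20 in knockout-labelled libraries. The split used the control values that also enter the fold change, and is given as a description.

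**Figure D5:**
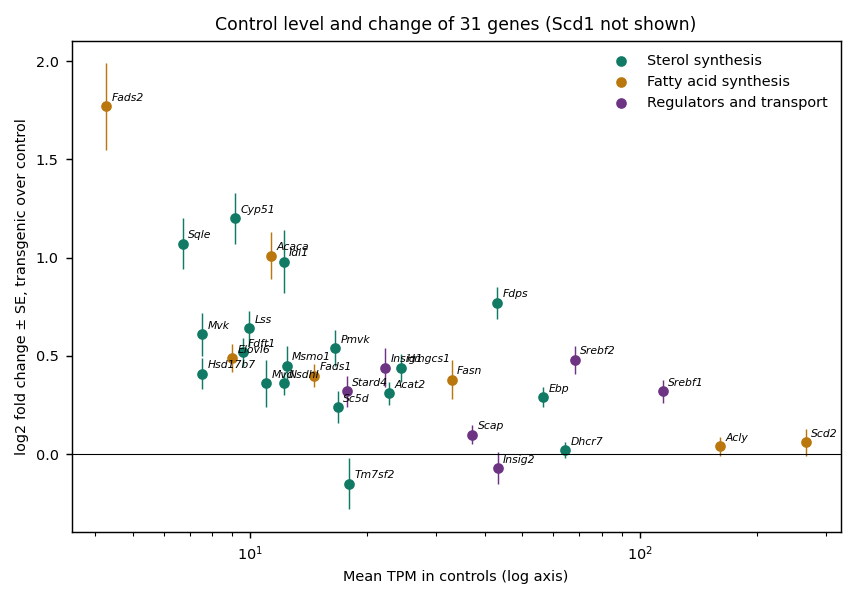
Mean TPM in the 6 controls (horizontal axis, logarithmic) against the log2 fold change of transgenic over control libraries (vertical axis, ± SE) for 31 genes coloured by arm, with Scd1 left out. The largest changes (Fads2, Cyp51, Sqle, Acaca, Idi1) are at low control TPM, and Scd2 and Acly, at 266.7 and 161.1 TPM, lie near 0.

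Other SREBP targets outside the 32 moved in the same direction. Of 15 tested genes of that kind, 10 were higher and 0 lower in transgenic libraries (median 0.31), against 23.0% of all tested genes higher. In knockout-labelled libraries 8 were higher and 0 lower (median 0.22), against 16.4% higher. Tmem97, a sterol-regulated membrane protein, was higher by 1.30 in transgenic and 1.20 in knockout-labelled libraries. It averaged 10.8 ± 0.642 CPM in transgenic, 10.3 ± 2.61 CPM in knockout-labelled and 4.38 ± 0.784 CPM in control libraries (SD, n = 5, 5 and 6).

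The machinery around the pathway gave few calls. Of all tested genes, 23.0% were higher and 15.6% lower in transgenic libraries. In knockout-labelled libraries 16.4% were higher and 1493 of 14933 lower. The counts of the short lists below were not tested against these shares. Of 9 genes that process SREBP or degrade sterol-regulated proteins, 1 was higher in transgenic libraries (Erlin1, 0.30, SE 0.09, adjusted p = 0.0194) and 0 in knockout-labelled libraries. Of 8 LXR targets and cholesterol exporters, 0 were higher and 1 lower in transgenic libraries (Abcg1, a cholesterol exporter, -0.27, SE 0.10, adjusted p = 0.0315), and 0 were called in knockout-labelled libraries. In the isoprenoid and ubiquinone branch, which draws on farnesyl diphosphate, 3 of 10 genes were higher in each comparison, against 23.0% of all tested genes in transgenic and 16.4% in knockout-labelled libraries, led by Coq2 of ubiquinone synthesis at 0.54 in transgenic and 0.35 in knockout-labelled libraries (SE 0.06 each).

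Genes of lipid storage that were called were lower. Of 9 genes for sterol storage and lysosomal export, 3 were lower and 0 higher in transgenic libraries, against 15.6% of all tested genes lower. The median of the 9 was -0.07, and 4 had positive values. The lower ones included Soat1, which esterifies cholesterol (103.2 ± 6.79 CPM against 141.4 ± 6.51 CPM in controls, log2 -0.46, SE 0.08, adjusted p = 2.88e-04), and Plin2, a lipid droplet coat protein (-0.45, SE 0.09, adjusted p = 0.00103). In knockout-labelled libraries 2 were lower, Stard3 at -0.15 and Plin2 at -0.27, against 1493 of 14933 tested genes lower. The median of the 9 was there -0.06, and 3 had positive values. Of 17 genes of fatty acid oxidation, 9 were higher and 2 lower in transgenic libraries (median 0.18), against 23.0% and 15.6% of all tested genes. In knockout-labelled libraries 7 were higher and 1 lower (median 0.14), against 16.4% of all tested genes higher and 1493 of 14933 lower. The leading oxidation genes, Etfa and Etfb of the electron transfer flavoprotein, were higher by 0.48 and 0.54 in transgenic and by 0.37 and 0.47 in knockout-labelled libraries. Of the 25 proliferation genes, 23 were higher and 0 lower in each comparison, with medians of 0.65 in transgenic and 0.64 in knockout-labelled libraries, above the medians of both lipid arms.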

How the data were processed

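Stranded libraries (KAPA chemistry) were made from the RNA of sorted cells, per the labels' protocols. The submitters' processing notes name Bowtie 1.0.0, SAMtools 0.1.18, edgeR 3.24.3 and the mouse build GRCm38 (mm10). Of the counting program nothing is given in the sources used. Each file deposited by the authors holds 2 values per gene, an estimated count and a TPM. Nonzero deposited counts were whole (within 1e-6) in 58.7% of cases, and 17 of the 32 genes had fractions in at least 1 library. GENCODE gave symbols to 46005 identifiers, and the 512 without one held 0.171% of counts.

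The expected counts were rounded, filtered by expression per group and scaled by TMM. A robust quasi-likelihood model with terms for group and sex (edgeR 4.0.16 under R 4.3.3) was fitted to the 16 libraries at once, leaving 12 residual degrees of freedom. Adjusted p means the two-sided Benjamini-Hochberg value over 14933 genes, called under 0.05, and the SE is the log2 fold change over the square root of F. TPM entered no test. Without Scd1, the genes had 43 to 29282 counts per library. No libraries were re-runs of each other (chi-square per degree of freedom within groups 4.28 to 72.1), and identifiers name a separate mouse for each. The test was checked on simulated counts.

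Genes and lists were chosen with earlier results of these data known. All 32 genes are named, and of each other list the called genes with the 2 smallest p in a comparison, except the transgenic value of Tmem97, which was chosen after it was seen. Results for some single genes of that kind are left out. Alternatives were other scalings, filters, models (DESeq2 1.42.0), subsets and each library left out. A correction for GC content and length, and leaving out libraries high in class II or interferon-response transcripts, were added after seeing the data.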

Additional observations from a re-analysis of the deposited data

Results flagged for a closer look

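In 105 groups of values (each gene, and each of the 3 arm medians, in each group of libraries), 5 had a highest library whose gap to the next exceeded Dixon's limit for the group's size, and chance gives about 1 in 20. Transgenic library 4 had 17.8 CPM of Pmvk, against 14.1 to 14.7 CPM in the other transgenic libraries. The same library had 22.2 CPM of Nsdhl, against 19.1 to 19.7 CPM. Knockout-labelled library 4, the deepest of all, had 332.7 CPM of Fasn, against 215.8 to 226.3 CPM in the rest of its group. Transgenic library 1 had 7.37 CPM of Scd1, against 0.714 to 1.25 CPM in the other transgenic libraries. Control 1 had 0.880 CPM of Scd1, against 0 to 0.110 CPM in the other controls.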

How the results depend on the processing

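In transgenic libraries over control, 20 to 28 of the 32 genes were called under the 12 alternative settings and 24 to 26 when single libraries were left out, with sterol medians of 0.41 to 0.45 and 0.41 to 0.48. In knockout-labelled libraries over control the calls were 15 to 20 when single libraries were left out (9 to 13 of the sterol enzymes) and 7, with 2 sterol enzymes, without the libraries high in class II transcripts. The fatty acid median in knockout-labelled libraries was 0.49, but 0.39 under the stricter filter and in males only, 0.40 with only the groups compared and with the GC and length correction, 0.62 without the libraries high in class II transcripts, and 0.37 to 0.52 when single libraries were left out (lowest without knockout-labelled library 4). In transgenic libraries it was 0.45, but 0.37 under the stricter filter and 0.35 with the GC and length correction. The stricter filter removes Scd1, and the cause of the other shifts was not tested. With the GC and length correction the 28 calls in transgenic libraries include 2 lower ones, Dhcr7 (-0.14, against 0.02 without it) and Insig2, and the 17 in knockout-labelled libraries include Insig2 as the 1 lower one. In males only the calls were 20 in transgenic and 15 in knockout-labelled libraries.

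Replicate numbers were not taken as pairs of mice in the main fit. Of 15 same-number pairs of libraries, 5 correlated above 0.1 (-0.178 to 0.253). The median correlation was 0.048 for same-number pairs and -0.006 for other pairs between groups, which cannot exclude a pairing. With a replicate block, 1 gene (Scd1) of the fatty acid arm and so of the 32 was called between transgenic and knockout-labelled libraries, and the fatty acid median of males over females was 0.14, against 0.05; the block left 27 calls in transgenic and 21 in knockout-labelled libraries over control. The median of all tested genes stayed between -0.01 and 0.03 under the alternative scalings in both comparisons with controls, and was -0.02 in knockout-labelled and -0.04 in transgenic libraries with the GC and length correction. Depth limits Scd1, whose counts were 0 in some controls, and Fads2, which had 43 counts in 1 library; estimated counts carry counting error beside the spread between mice.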
